A study of Homo sapiens with 2 samples.

Results

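The annexin genes ANXA1, ANXA2, ANXA3, ANXA4, ANXA5, ANXA6, ANXA7, ANXA9, ANXA11 and ANXA13 were read on U133 Plus 2.0 arrays from SK-N-MC cells, a human line that the submitters call neuroepithelioma and that is today counted among Ewing family tumours. Every probe set annotated to a single one of these 10 genes was taken, which gave 20 of the 54675 probe sets on the array. The family was chosen by gene name, but with earlier results of these arrays known, among them the low ANXA4 signal in the clone; the ANXA4 values that led to its choice and all values below are therefore descriptions.

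Each group was 1 array of 1 stably transfected line, both made with Lipofectin and the pCMV-Script vector, in which a viral promoter drives an insert. The control was vector control 1, which carried the empty vector, and the other was hyperexpression clone 4, which carried human melanotransferrin cDNA in that vector. Melanotransferrin is a membrane-bound relative of the iron carrier transferrin. With 1 array per group there is no replicate SD and no test, a difference between the lines cannot be told apart from the differences that any pair of clones can have, and fewer cells that make a transcript and less of it per cell cannot be told apart either.

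Annexins are soluble proteins that bind negatively charged phospholipids when calcium rises. A conserved core of repeats carries the calcium and membrane contacts, and a variable N-terminal tail holds the sites for partners such as S100 proteins. They take part in membrane organisation, vesicle traffic, repair of torn plasma membrane and, for some members, signalling outside the cell.

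One annexin stood apart. ANXA4 was 3.71-fold lower in the clone on its brightest probe set and 3.14-fold lower on its other one. It was the only 1 of the 7 measured members that differed by 2-fold or more, and 0 were 2-fold higher; of all measured genes 1.9% were at least 2-fold lower and 1.21% at least 2-fold higher. ANXA1, ANXA2, ANXA5, ANXA6 and ANXA11 differed by less than 1.2-fold and ANXA7 by 1.25-fold on the brightest probe set of each gene; 60.2% of genes with both signals above the floor differed by less than 1.2-fold. ANXA3, ANXA9 and ANXA13 lay below the floor on both arrays. The floor is a signal of 208, the 90th percentile of 191 probe sets of the olfactory receptor, bitter taste receptor and hair keratin-associated gene families, which these cells should not express. A gene is called measured here when its brightest probe set is above the floor on at least 1 array.

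Because ANXA4 was the member that differed, the 250 bases before each of its annotated RefSeq transcription starts are shown, 5′ to 3′ on the + strand of GRCh38.p14. Capitals mark the GC box letters GGGCGG or, for the other strand, CCGCCC, counted with overlaps. The first window is chr2:69643558-69643807 and the second is chr2:69741884-69742133.
ANXA4 start 1: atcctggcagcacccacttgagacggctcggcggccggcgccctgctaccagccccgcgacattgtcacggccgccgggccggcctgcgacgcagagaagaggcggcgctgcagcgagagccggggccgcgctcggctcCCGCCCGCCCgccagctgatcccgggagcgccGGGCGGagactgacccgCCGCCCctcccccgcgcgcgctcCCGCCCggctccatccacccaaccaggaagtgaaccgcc
ANXA4 start 2: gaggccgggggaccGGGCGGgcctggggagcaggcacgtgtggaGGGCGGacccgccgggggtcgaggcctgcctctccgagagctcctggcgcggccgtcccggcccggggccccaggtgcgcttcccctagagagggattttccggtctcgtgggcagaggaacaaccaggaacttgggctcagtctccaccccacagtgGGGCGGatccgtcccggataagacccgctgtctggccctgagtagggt
The first window held 5 GC boxes and 36 CpG dinucleotides with a GC content of 77.2%, and the second held 3 GC boxes and 21 CpG with 71.6%. Over the 35116 RefSeq windows of this length, 42.6% held at least 1 GC box, the median CpG number was 11 and the median GC content 58%. Neither ANXA4 window held the TATA box letters TATAAA, on either strand; 10.7% of all windows did. The arrays do not say which start was used.

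Promoter windows were matched by symbol for 9 of the 10 annexins, with 13 starts in all; ANXA13 was not matched. At least 1 GC box was present at 7 of the 13 starts: both ANXA4 starts, and starts of ANXA2, ANXA5, ANXA6, ANXA7 and ANXA11. ANXA1 differed from the rest in base composition, with a GC content of 38.4% and 0 CpG. Its window held 1 TATA box and 2 CCAAT boxes (CCAAT or ATTGG, present in 32.0% of all windows). CCAAT boxes were also present at starts of ANXA6, ANXA7 and ANXA11. A TATA box was also present at 1 ANXA11 start, within 50% GC, and at the ANXA2 start, within 78% GC. These matches describe letters only.

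Some facts of the whole array pair bear on all values. The deposited signals had been scaled so that the mean after dropping 2% at each end was 999.9 on both arrays. Of 12663 measured genes, 240 were at least 2-fold lower in the clone and 153 at least 2-fold higher; centred on 18 hybridisation spike probe sets the split was 57 and 918, and centred on 27 poly-A spike probe sets 1512 and 18. Those scalings put the median log2 ratio of all measured genes at 0.47 and -0.58, against -0.022 as deposited, so directions hold relative to all genes. Probe sets of 1 gene differed from each other with a pooled SD of 0.35 on the log2 ratio scale over 5387 genes; this is the only repeat measurement and leaves out the spread between cultures and clones. Of 4 probe sets for MELTF, the gene of melanotransferrin, the 1 whose annotated transcript is also that of the insert read 18.4 in the control and 4449.4 in clone 4, at least 21.4-fold higher. Another MELTF probe set read 245.8 and 209.3, a log2 ratio of -0.23, and the remaining ones were under the floor, at 64.4 and 125.5 and at 19.2 and 10.8. All 9 Ewing family markers with a probe set of their own lay above the floor on both arrays, as did 10795 of all 19775 genes. Among the markers CD99 read 31465 and 32239, and GLI1, the dimmest, 456.2 and 541.2.

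ANXA4 binds membranes in a calcium-dependent way, assembles on them into ordered lattices and is known best from epithelia. Its brighter probe set, 201301_s_at, read 1077.2 in the control and 290.7 in clone 4, a log2 ratio (clone over control) of -1.89. Its other probe set, 201302_at, whose identifier does not mark shared sequence, read 882.6 and 281.3, a log2 ratio of -1.65. Both probe sets thus put the clone at 27.0% and 31.9% of the control signal, and the clone signals were 1.40 and 1.35 times the floor, so the clone's signal was dim on both.

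The probe sets of ANXA4 differed from each other by less than the pooled SD of 0.35. Of the 5387 genes with at least 2 probe sets that passed the floor on both arrays, 4 (0.0743%) were at least 2-fold lower on every one; ANXA4 was 1 of them, beside CASP8, FAM118A and RARG. Among the 10795 genes above the floor on both arrays, 3 had a lower log2 ratio than ANXA4. Of 9376 probe sets with a mean signal within 2-fold of the ANXA4 probe sets, 2.6% were at least 2-fold lower, and their log2 ratios had an SD of 0.48. These shares describe where ANXA4 lay and are no test, since its low value was known when the family was picked.

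**Figure D1:**
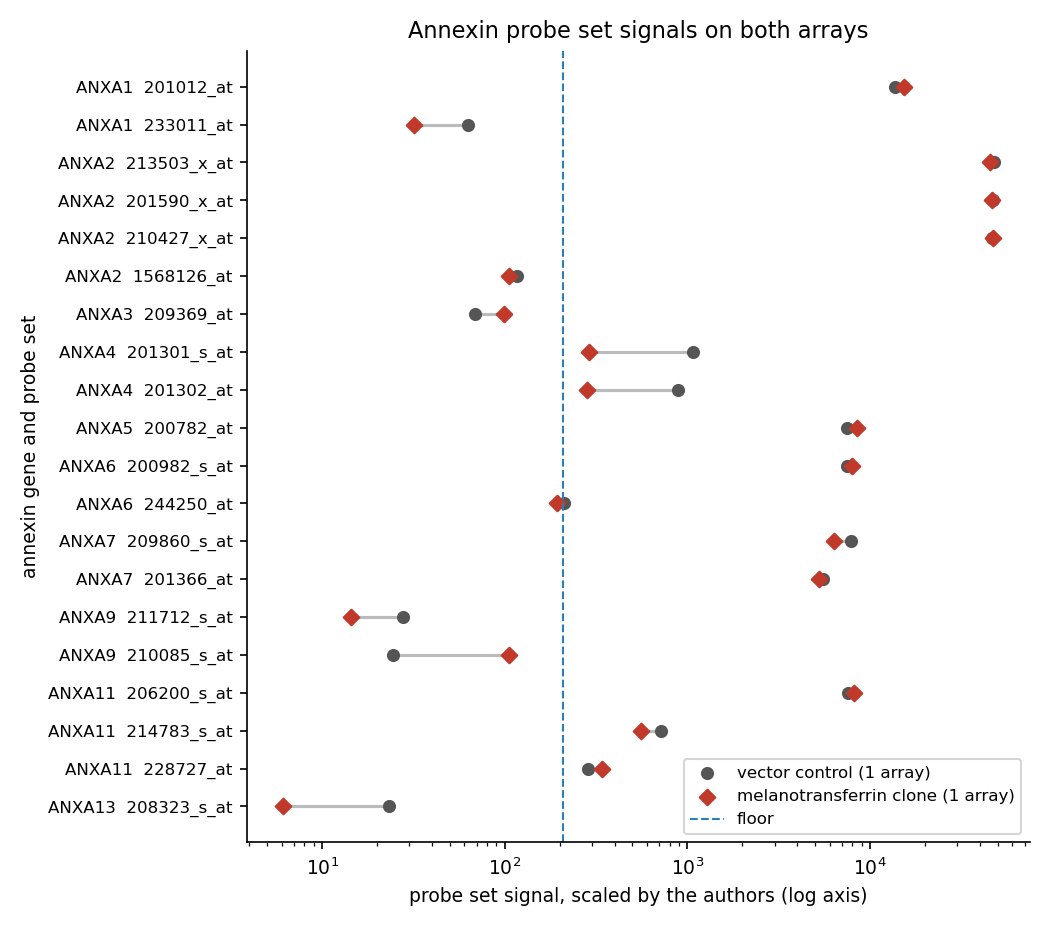
Signals of the 20 annexin probe sets on a log axis, with circles for the vector control and diamonds for the melanotransferrin clone, 1 array each; the dashed line is the floor of 208. Both ANXA4 probe sets lie near 1000 in the control (1077.2 and 882.6) and near the floor in the clone (290.7 and 281.3), while the brighter probe sets of the other measured annexins lie close together on both arrays.

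The difference of ANXA4 from its family does not depend on a constant scaling of the arrays, because a factor common to 1 array cancels within it. The other 6 measured annexins had a median log2 ratio of 0.091, and the difference of ANXA4 from it was -1.98 on the log2 scale. For all 7 the median relative to all measured genes was 0.10, and 5 of the 7 had a log2 ratio above 0 against 47.1% of measured genes. That direction is set by the scaling: centred on the hybridisation spikes 6 of the 7 were above 0, and on the poly-A spikes none was. Without probe sets of shared sequence 6 were measured and 3 were above 0.

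ANXA1 is a glucocorticoid-induced annexin that damps inflammation through formyl peptide receptors. It read 13641 in the control and 15384 in clone 4 on 201012_at, 1.13-fold higher. Its second probe set, 233011_at, read 63.1 and 31.7, below the floor on both arrays. ANXA1 thus had 1 usable ratio.

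ANXA2 forms a complex with S100A10, binds actin at membranes and gathers plasminogen and its activator at the cell surface. Its 3 bright probe sets read 47765 and 45374, 46879 and 46555, and 46630 and 47233 in the control and the clone. Their log2 ratios ran from -0.074 to 0.019, so neither array was higher throughout. All 3 carry the mark for shared sequence, and the 1 probe set without it, 1568126_at, was below the floor at 115.9 and 105.3.

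ANXA2 has processed pseudogenes whose sequence is close to its own, so their signals are uncertain. ANXA2P2, on chromosome 9, read 18537 and 16301 on a probe set of shared sequence, a log2 ratio of -0.19. ANXA2P1 read 255.3 and 313.7 and ANXA2P3 read 532.3 and 616.4, log2 ratios of 0.30 and 0.21. Signal from ANXA2 and from these copies cannot be separated on probe sets that share sequence, and no probe sequences were used here.

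ANXA5 binds phosphatidylserine and is used as a probe of dying cells. It read 7452.4 in the control and 8485.7 in clone 4 on its 1 probe set, 1.14-fold higher. ANXA6 is a larger annexin with a duplicated core that binds the RAS regulator RASA1 and protein kinase C alpha. It read 7482.2 and 7913.7 on 200982_s_at, 1.06-fold higher, and 211 and 193 on 244250_at, where the clone signal fell under the floor and the ratio is a bound.

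ANXA7, once called synexin, promotes membrane fusion and binds sorcin. Its probe sets read 7903 and 6303.8 on 209860_s_at and 5521.3 and 5262.1 on 201366_at. The log2 ratios were -0.33 and -0.069, so both were lower in the clone, by different amounts. The larger value was 1.25-fold and within the pooled SD of probe sets. Centred on the hybridisation spikes it turned to 0.18.

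ANXA11 has a long N-terminal tail, binds S100A6 and PDCD6 and tethers RNA granules to lysosomes. Its brightest probe set, 206200_s_at, read 7594.8 in the control and 8147.2 in clone 4. On 214783_s_at it read 717.9 and 557.6, and on 228727_at 284.4 and 338.7. The log2 ratios of 0.10, -0.36 and 0.25 did not share a direction, so the probe sets of ANXA11 disagreed.

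**Figure D2:**
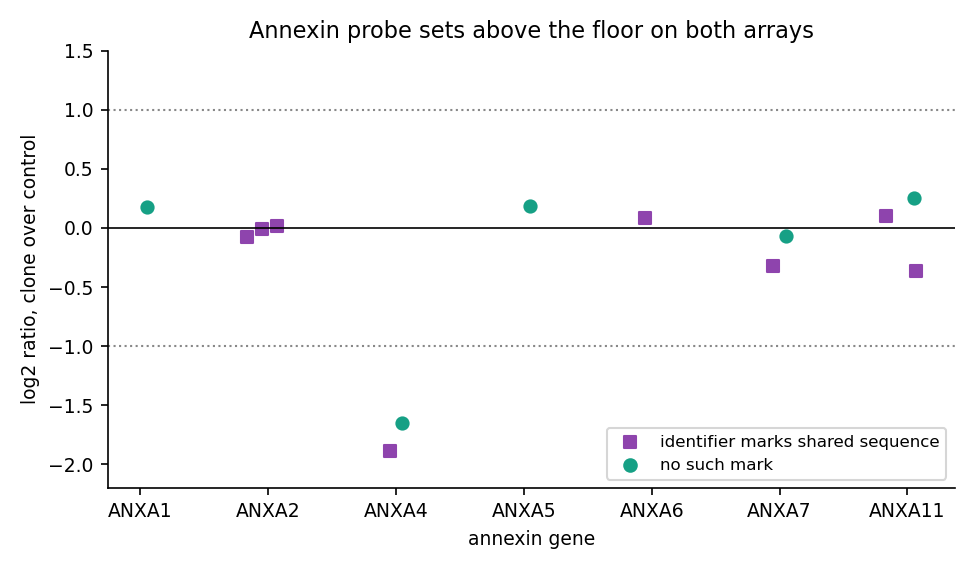
Log2 ratios (clone over control) of the 13 annexin probe sets with both signals above the floor, by gene; squares are probe sets whose identifier marks shared sequence, circles those without, and dotted lines mark 2-fold. The 2 ANXA4 probe sets lie at -1.89 and -1.65, and the other 11 between -0.36 and 0.25.

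The remaining members were not measured. ANXA3, abundant in neutrophils, read 68.8 in the control and 98.5 in clone 4. ANXA9, an annexin whose core lacks the usual calcium-binding sites, read 27.7 and 14.3 on 211712_s_at and 24.5 and 106.1 on 210085_s_at. ANXA13, a myristoylated annexin of the intestine and kidney, read 23.1 and 6.1. Each of these signals was under the floor, so no ratio is given for them. In all, both arrays gave a signal above the floor for 13 of the 20 probe sets, the control array alone for 1, and neither for 6.

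Genes beside ANXA4 on chromosome 2 did not show its difference. The 5 nearest genes on each side with both signals above the floor were taken, in the order of the RefSeq annotation. Their log2 ratios ran from -0.65 to 0.73 with a median of 0.029. Of these 10 genes 0 were 2-fold lower, which is near the share of 1.9% over all measured genes. The nearest on each side were AAK1, a kinase of clathrin adaptors, which read 1252 and 1550.3, and GMCL1, which read 1816.5 and 2154.5. The 728 genes of chromosome 2 above the floor on both arrays had a median log2 ratio of 0.017.

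ANXA1 is the annexin gene on chromosome 9, many genes of which read higher in the clone. The 445 chromosome 9 genes above the floor on both arrays had a median log2 ratio of 0.48, and ANXA1 stood at 0.17. Of its 10 neighbours 9 were above 0, with a median of 0.57, where 47.1% of all measured genes were above 0. Of 10 neighbours each, 8 were above 0 for ANXA5, 6 for ANXA11 and 5 for ANXA4. For ANXA2, ANXA6 and ANXA7 it was 4 each. ALDH1A1, a retinaldehyde dehydrogenase next to ANXA1, read 587.6 and 1016.1. LINC01504, another neighbour of ANXA1, went the other way at 703.8 and 266.5. The chromosomes of the other measured annexins had medians from -0.029 (chromosome 15, with ANXA2) to 0.037 (chromosome 4, with ANXA5).

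**Figure D3:**
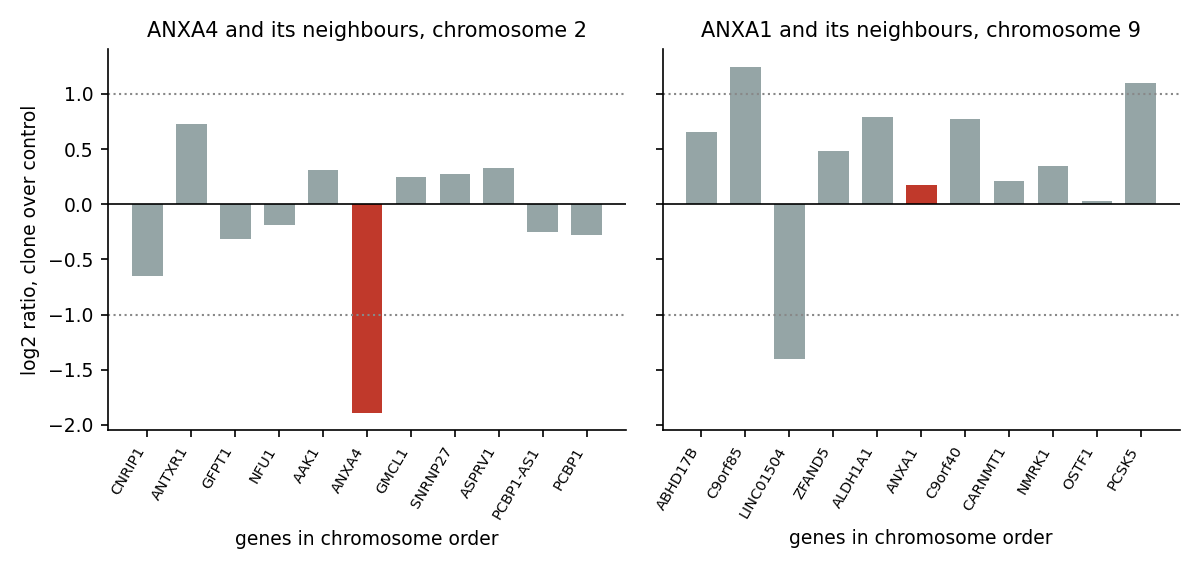
Log2 ratios (clone over control) of ANXA4, left, and ANXA1, right, in red, with the 5 nearest such genes on each side, both signals above the floor, in grey; dotted lines mark 2-fold. ANXA4 at -1.89 lies among neighbours between -0.65 and 0.73, and ANXA1 at 0.17 among neighbours of which 9 of 10 are above 0. Of all measured genes 47.1% are above 0.

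Among epithelial markers, 3 of the 4 measured were lower in the clone and 1 was higher. Of all measured genes 47.1% had a log2 ratio above 0, and 1.9% were at least 2-fold lower. The other 6 of the 10 in the list were under the floor on both arrays. KRT7 read 904.9 and 398.8 and KRT8 read 509.9 and 245.6, which made them 2.27-fold and 2.08-fold lower in the clone. MUC1, an epithelial mucin, read 344.1 and 182.1, a bound of at least 1.65-fold lower, and KRT18 read 9759.9 and 10363. The defining markers CDH1 and EPCAM stayed under the floor, with CDH1 at 124.5 and 90 and EPCAM at 137.7 and 34.1, as were CLDN4, ESRP1, GRHL2 and KRT19. The summed signal of the list was 12249 and 11525, most of it from KRT18. The part of these markers in the ANXA4 result was not tested.

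Markers of other cell types were mixed. Of 10 fibroblast markers 8 were measured, 4 higher and 4 lower and 0 by 2-fold, with summed signals of 51172 and 49308. Of 8 leukocyte markers with a value 2 were measured, PTPRC at 15581 and 13943 being by far the larger, and the sums were 16509 and 14551. Of 10 endothelial markers 3 were measured, 1 higher and 2 lower, and the sums were 2078.1 and 1557.2. CDH5 was at least 2.04-fold higher, a bound with the control signal under the floor. PECAM1 was 1.85-fold lower and EMCN 1.56-fold lower, both above the floor on both arrays. The part of these cell type markers in the annexin values was not tested.

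S100 proteins are small calcium-binding partners of annexin tails. Of 19 S100 genes 5 were measured, 3 higher and 2 lower, 0 by 2-fold in either direction. Of all measured genes 1.9% were at least 2-fold lower, 1.21% at least 2-fold higher, and 47.1% above 0. Counts of 0 past 2-fold, here and in the lists below, are near those shares. S100A10, the partner of ANXA2, read 3326.9 in the control and 3855 in clone 4. S100A11, a partner of ANXA1, read 30.6 and 13.5, and S100A6, a partner of ANXA11, read 124.8 and 11.6, all under the floor.

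S100A4, a motility-linked S100 protein, read 1191.4 and 830.5, a log2 ratio of -0.52. S100A13 read 2180.4 and 1583.4, a log2 ratio of -0.46, and -1.05 on its other measured probe set. S100B read 630.2 and 756.4. S100A16 was under the floor in the control at 192.7 and read 373.6 in the clone, at least 1.80-fold higher. The measured S100 genes thus went both ways, and their relative median of 0.23 turned to -0.13 with a floor 2 times as high.

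Among the 13 genes listed as annexin partners or receptors, 6 were measured and 0 passed 2-fold. SRI, the sorcin that binds ANXA7, read 8382.1 and 7739.1. PDCD6, a calcium sensor that binds ANXA7 and ANXA11, read 6632.8 and 5969.7. AHNAK, a giant scaffold that binds the complex of ANXA2 and S100A10, read 4310.3 and 3838.2 on its brightest probe set, and its other measured probe set had a log2 ratio of -1.19. PRKCA, the kinase bound by ANXA6, read 401.9 and 564.7, and its probe sets ran from -0.36 to 0.49 on the log2 scale.

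The formyl peptide receptors of ANXA1 were not measured: FPR1 read 197.3 and 61.6, FPR2 153.3 and 158.9, and FPR3 31.8 and 62.8. PDCD6IP and RASA1 are not analysed here. ANXA2R, named as a receptor of ANXA2, was looked up after the lists were made and read 695.6 in the control and 543.5 in clone 4, 1.28-fold lower. The 6 measured partners had a relative median of -0.11, from 4 lower and 2 higher genes.

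Copines and ferlins are other families of calcium-dependent membrane proteins, built on C2 domains. Of 14 with a probe set 8 were measured, 5 lower and 3 higher, 0 by 2-fold, with a relative median of -0.075. CPNE4 read 2178.1 and 3724.9, 1.71-fold higher, with log2 ratios of 0.59 and 0.77 on its probe sets. CPNE1 read 10205 and 7147.6, 1.43-fold lower, and DYSF, the ferlin dysferlin of muscle membrane repair, 517.6 and 402.7, 1.29-fold lower. CPNE5 read 325.5 and 86.6, a bound of at least 1.56-fold lower.

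Genes of plasma membrane repair, a process in which annexins act, were measured for the greater part. Of 18 with a probe set 14 were above the floor on both arrays and CAV3, MYOF, SYT7 and TRIM72 on neither. Among the 14, 7 were higher and 7 lower, 0 by 2-fold, and 9 differed by less than 1.2-fold. Of all genes above the floor on both arrays 60.2% differed by less than 1.2-fold, and 47.1% of measured genes were above 0. The list thus lay near the shares over all genes. CAV2, a caveolin, read 4254 and 7051.3, 1.66-fold higher, with log2 ratios of 0.40 and 0.73 on its probe sets. VPS4A, an ATPase of the ESCRT machinery, read 2185.6 and 2878.3, 1.32-fold higher. EHD2, an ATPase at caveolae, read 265 and 344.8, a log2 ratio of 0.38. The relative median was -0.0072.

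Phospholipase A2 enzymes release arachidonic acid, and annexins have been described as their inhibitors. Of 14 with a probe set 8 were measured, 5 lower and 3 higher, 0 by 2-fold. PLA2G4A, the cytosolic enzyme, read 440.2 and 313.4, a log2 ratio of -0.49. PNPLA8, a calcium-independent enzyme, read 4645 and 6143.9, a log2 ratio of 0.40, and PLA2G15, the lysosomal enzyme, read 409.4 and 317.6, a log2 ratio of -0.37. The relative median of -0.28 rests in part on bounds of 2 genes, PLAAT3 and PLA2G4C, and was 0.086 with a floor 2 times as high.

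**Figure D4:**
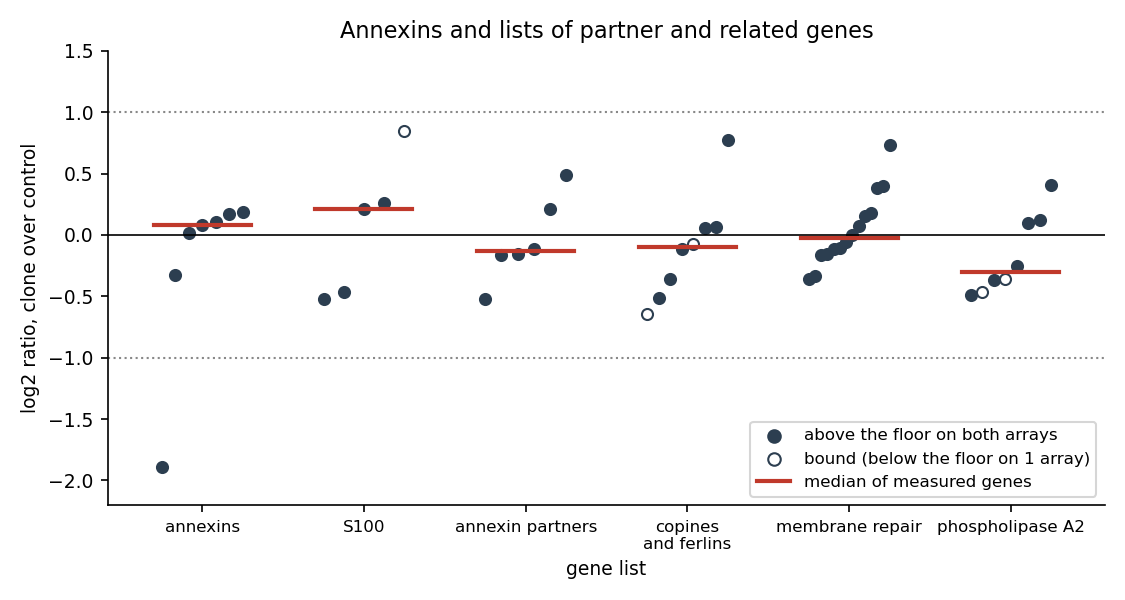
Log2 ratios (clone over control) of measured annexins and of 5 lists of partner and related genes, 1 point per gene; filled points were above the floor on both arrays, open points are bounds, red bars are medians and dotted lines mark 2-fold. ANXA4 at -1.89 is the only point past 2-fold.

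The processing choices left the ANXA4 difference in place. Over 11 other settings its log2 ratio ran from -2.50, centred on the poly-A spikes, to -1.37, a bound with a floor 2 times as high. The count of annexins at least 2-fold lower was 1 and the count at least 2-fold higher 0 in each of the 11. Some floors could not change the ANXA4 value, because both its signals lay above them. It stayed at -1.89 with 0.5 times the floor, each array's median signal as floor, and the floor without pseudogenes and an antisense gene. All settings reuse the same arrays and are no repeat measurements. All measured annexins, ANXA4 among them, moved by the same amount when the arrays were centred on spikes.

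**Figure D5:**
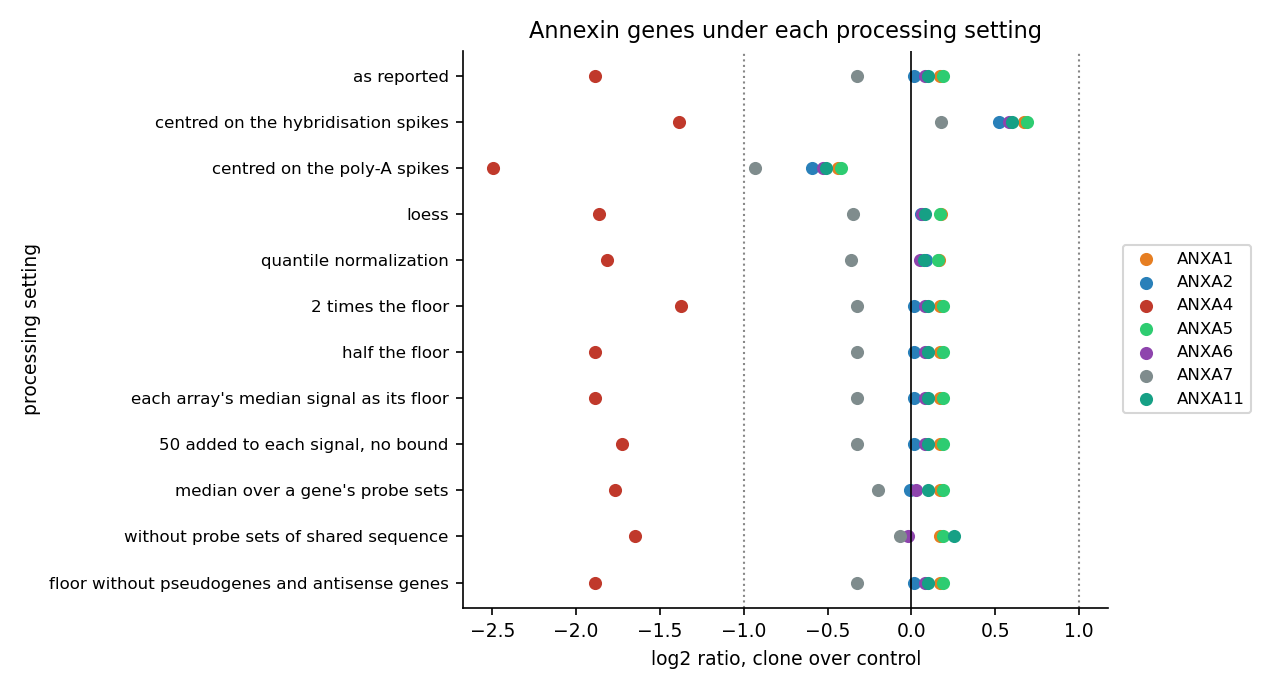
Log2 ratios (clone over control) of the 7 measured annexins, 1 row per processing setting; dotted lines mark 2-fold. ANXA4 lies between -2.50 and -1.37. All 7 annexins, ANXA4 among them, shift by the same amount when the arrays are centred on spikes. ANXA2 has no point without probe sets of shared sequence.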

How the data were processed

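The deposited intensity values, linear probe set signals, came from 1 Affymetrix array per line; GCOS 1.3 was used, per the submitters' processing notes, while for the summary algorithm and detection calls the sources used here give nothing. Both arrays had been scaled by the authors to the same trimmed mean, as the deposited intensity values show, so a change of most transcripts alike cannot be seen. Names came from GEO's platform annotation (2016): 41097 probe sets had a single gene symbol, 1801 several and 11777 none here, and 41043 of the first were updated by gene ID through RefSeq (GRCh38.p14), and gene coordinates of the arrays are not given because no build is stated.

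A signal below the floor on 1 array was set to the floor, so the ratio is a bound. A gene's value is that of its brightest probe set by mean signal. Relative medians are list medians minus the median of all measured genes. No test was possible, and the number of arrays limits the precision.

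The members and lists were chosen with earlier results of these data known. The rule named every annexin probe set, list members past 2-fold, otherwise the 3 largest differences of a list above the floor on both arrays, and the partners S100A10, S100A11, SRI and PDCD6. Other genes named, the neighbours and ANXA2R were chosen after their values were seen. The scripts, tested on simulated data, used pandas 2.3.3, numpy 2.4.6 and statsmodels 0.14.6 in Python 3.11.15. Alternatives were 4 scalings or normalizations, 4 floors, 50 added to each signal, the median over a gene's probe sets, and no probe sets of shared sequence.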

Additional observations from a re-analysis of the deposited data

How the results depend on the processing

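Of the results above, the counts of annexins past 2-fold did not change in any of the 11 settings. The relative medians of the annexin, partner, copine and ferlin, and membrane repair lists moved by less than the pooled SD of probe sets in all 11. That SD of 0.35 is for single probe sets and is larger than each of these medians, so it is a wide limit. The membrane repair median ran from -0.068 to 0.11 and changed sign in 6 of the 11 settings. The S100 median of 0.23 was -0.13 with 2 times the floor and -0.19 with 0.5 times the floor, and it was -0.092 centred on the hybridisation spikes. The phospholipase A2 median of -0.28 was 0.086 with 2 times the floor. The floor sets which dim genes are measured. Over all genes the number at least 2-fold lower ran from 47 to 1512 and the number at least 2-fold higher from 18 to 918 across settings. The floor without pseudogenes and an antisense gene was chosen after seeing the data. No paired analysis was possible because each group has 1 array. Signals near the floor, as for ANXA4 in the clone, are the least precise.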
